A study of Mus musculus with 6 samples.

Results

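The 8 genes described here, Klhl21, Klhl24, Klhl30, Klhl31, Klhl33, Klhl38, Klhl40 and Klhl41, encode Kelch-like proteins and were taken by gene symbol. All 8 were found among the 19458 genes of each table. The data were RNA-seq profiles of gastrocnemius, a calf muscle, from C57BL/6 mice aged 9 weeks, in 3 libraries of genotype tmem182-/- and 3 of genotype wild type. Tmem182 encodes a membrane protein of muscle. The labels give no allele design, sex or treatment, and do not tie a library to a particular animal, so p-values here describe the spread between these libraries, part of which may be technical.

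Kelch-like proteins carry a BTB domain, a BACK domain and a propeller of Kelch repeats. Most are substrate adaptors: the BTB domain binds the ubiquitin ligase scaffold cullin 3 and the propeller holds the protein to be ubiquitinated. In skeletal muscle KLHL40 and KLHL41 are instead best known for protecting thin-filament proteins, and loss of either causes nemaline myopathy, a congenital disease with rod-like deposits in the fibres.

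The upstream sequences of 3 members are shown because these are the most abundant member (Klhl41), its closest functional relative (Klhl40) and the member with the lowest p in the genotype comparison (Klhl33). Each is the 250 bases before the start site in RefSeq on GRCm38.p6, read 5′ to 3′ on the gene's strand. Capitals mark E-boxes (CANNTG, bound by myogenic basic helix-loop-helix factors) and the MEF2 site (bound by the MEF2 factors of muscle). A CArG box, the site of serum response factor, was also searched. Both strands were searched, and no matches overlapped in these windows.
Klhl41: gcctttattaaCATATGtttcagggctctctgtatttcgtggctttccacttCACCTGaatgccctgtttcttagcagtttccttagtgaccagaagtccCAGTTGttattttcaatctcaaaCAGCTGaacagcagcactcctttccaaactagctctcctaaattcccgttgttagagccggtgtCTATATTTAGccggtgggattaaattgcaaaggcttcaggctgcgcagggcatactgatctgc
Klhl40: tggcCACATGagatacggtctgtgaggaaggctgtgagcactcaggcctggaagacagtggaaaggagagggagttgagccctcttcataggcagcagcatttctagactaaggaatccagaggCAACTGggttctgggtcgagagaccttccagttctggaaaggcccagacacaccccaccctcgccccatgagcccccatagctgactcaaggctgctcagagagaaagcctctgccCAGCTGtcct
Klhl33: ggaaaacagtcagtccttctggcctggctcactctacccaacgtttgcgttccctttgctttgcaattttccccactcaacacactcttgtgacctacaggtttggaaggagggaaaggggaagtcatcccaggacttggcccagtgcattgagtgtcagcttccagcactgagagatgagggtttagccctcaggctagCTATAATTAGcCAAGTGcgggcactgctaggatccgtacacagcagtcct

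The windows lie at chr2:69669870-69670119 on the plus strand for Klhl41, chr9:121777357-121777606 on the plus strand for Klhl40 and chr14:50897484-50897733 on the minus strand for Klhl33. Klhl41 held 4 E-boxes, Klhl40 held 3 and Klhl33 held 1. A MEF2 site lay 63 bases before the start of Klhl41 (CTATATTTAG) and 50 bases before that of Klhl33 (CTATAATTAG), and none lay in the Klhl40 window. RefSeq windows were at hand for 5 of the 8 members. Klhl21 held 2 E-boxes, and the Klhl31 window and the window of a second start of Klhl33 held no match to any of the motifs. In the GENCODE annotation Klhl31 starts at 77636500, so most of its RefSeq window (77636482 to 77636731) lies inside the gene. The sequence before that GENCODE start was hardly searched. The windows of Klhl21 (152008641 to 152008890) and Klhl33 also run in part past the GENCODE starts, at 152008803 and at 50897507 (minus strand). Among all 32851 windows of this length 66.2% held an E-box, 2.92% a MEF2 site and 1.47% a CArG box, so an E-box alone is common. A match describes letters and is not a binding site.

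Tmem182 measured 6.23, 4.30 and 2.17 FPKM in knockout libraries 1, 2 and 3 against 147.48, 121.39 and 120.97 FPKM among wild types, so it was low in all 3, although the source field of knockout libraries 2 and 3 carries other Tmem numbers. FPKM are fragment numbers divided by transcript length and by the total of the library, as the authors deposited them. In edgeR's quasi-likelihood test Tmem182 alone, of 12774 genes, had an adjusted p under 0.05, and it did not pass without knockout library 2 or without wild-type library 3. Libraries held 16212341 to 18672630 expected counts, of which the 8 Kelch genes together took 0.174% to 0.192%. Markers of skeletal muscle were high, with summed levels of 46947 to 57749 FPKM over 8 genes. The labels' protocol speaks of cultured myoblasts and myotubes. Of 8 markers of dividing or differentiating myoblasts, summing to 14.4 to 31.04 FPKM, the division genes Mki67, Top2a, Ccnb1 and Cdk1 were at or below 0.13 FPKM in every library. The myogenic factors Myod1 and Myog were at 11.69 to 24.96 and 1.84 to 3.25 FPKM, embryonic myosin Myh3 at 0.19 to 2.98 FPKM and the fusion gene Mymk at 0 to 0.57 FPKM. These values do not tell the labelled tissue from myotubes.

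Knockout library 1 stood apart. Its 10 most abundant genes took 22.0% of counts, against 28.2% to 31.9% in the other libraries, and its TMM factor, the edgeR scaling factor for library composition, was 1.19 against 0.933 to 1.04. Relative to the other libraries, values of this library are therefore lower in CPM, counts relative to the scaled library total, than in FPKM. It also held the highest sums of macrophage markers (17.59 against 5.70 to 7.77 FPKM in the others), adipocyte markers (64.33 against 8.35 to 23.40 FPKM), Schwann cell markers (227.34 against 11.70 to 152.26 FPKM), slow fibre markers (2832 against 92.3 to 1904 FPKM), endothelial markers (128.84 against 52.11 to 92.72 FPKM) and fibro-adipogenic markers (308.73 against 127.58 to 303.17 FPKM). Its sum of fast fibre markers was the lowest (71656 against 97411 to 111656 FPKM). In bulk tissue, fewer cells of a type and less RNA per cell cannot be told apart.

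In wild-type muscle the 8 genes spanned levels from that of Klhl41, at 199 ± 4.31 FPKM (SD, n = 3), to that of Klhl38, at 7.44 ± 4.16 FPKM. Klhl41 ranked 230 of 19458 genes by mean FPKM, Klhl31 ranked 538 and Klhl40 ranked 986. Klhl31 (88.0 ± 5.67 FPKM), Klhl40 (49.4 ± 3.28 FPKM) and Klhl33 (38.0 ± 2.02 FPKM) followed Klhl41, each with a range separate from its neighbours. Klhl21 (34.9 ± 1.0 FPKM) and Klhl30 (32.3 ± 4.47 FPKM) had overlapping ranges, so their order is not resolved. Klhl24 (20.3 ± 1.42 FPKM) lay below them and above Klhl38. In the knockout the order was the same for the top 3 and for the last 2, but Klhl33 (28.3 ± 5.94 FPKM) took the sixth place behind Klhl21 (34.1 ± 3.41 FPKM) and Klhl30 (31.6 ± 5.93 FPKM), with ranges that overlapped from Klhl21 down to Klhl38.

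Of 51 Kelch-BTB genes found, the 6 with the highest wild-type means were all among these 8. Ivns1abp, which encodes an influenza NS1-binding Kelch protein, was at 28.0 ± 1.56 FPKM and Keap1, the adaptor that targets the oxidative stress factor NRF2, at 26.9 ± 2.26 FPKM. Both lay above Klhl24, and Klhl8, Klhl7 and Kbtbd12 lay between Klhl24 and Klhl38. Kbtbd13, another nemaline myopathy gene, was at 7.19 ± 1.14 FPKM, close to Klhl38. Of the 43 other Kelch-BTB genes, 19 had wild-type means under 1 FPKM.

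**Figure D1:**
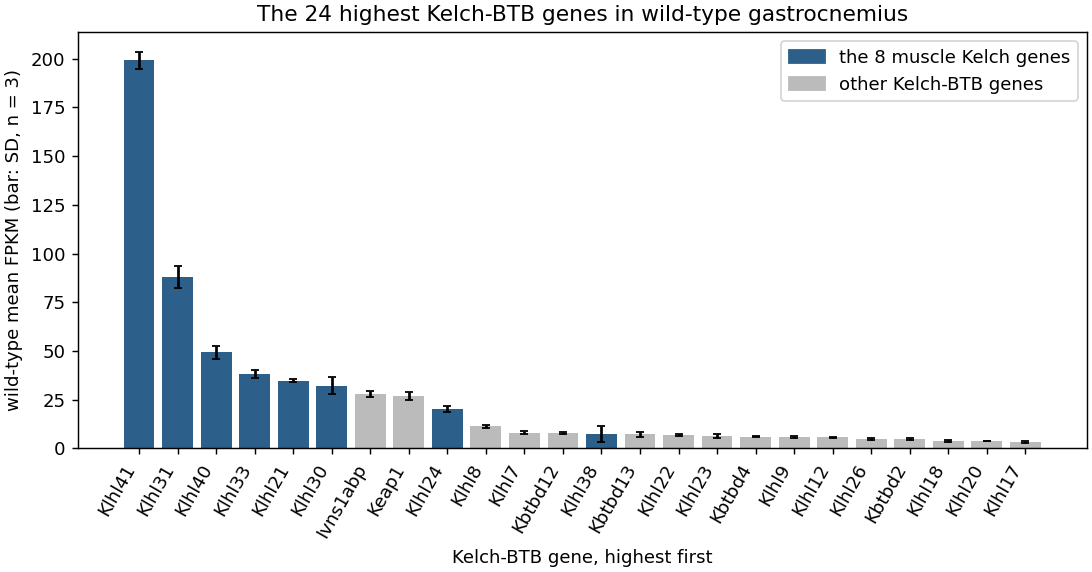
Wild-type mean FPKM (bars, with SD over 3 libraries) of the 24 most abundant Kelch-BTB genes, with the 8 muscle Kelch genes in blue. Klhl41 stands at 199 FPKM and the next gene, Klhl31, at 88.0 FPKM.

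**Figure D2:**
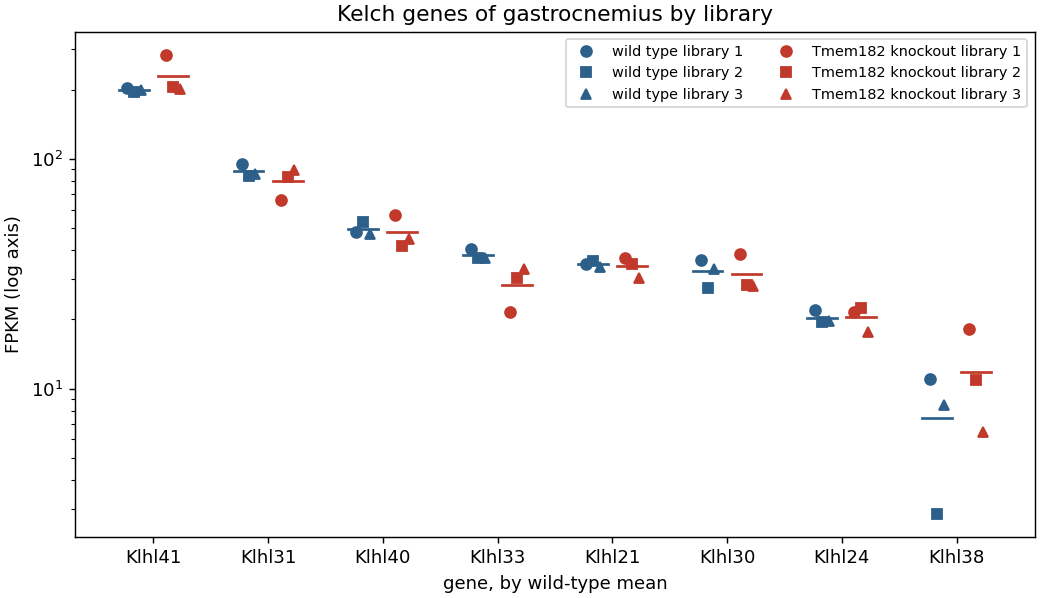
FPKM on a log axis for each of the 8 genes, with 1 point per library and a line at each group mean. Klhl33 is the only gene whose knockout points all lie below its wild-type points on this scale, and Klhl38 has the widest spread within groups.

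None of the 8 genes passed the genotype comparison, which asks whether their transcripts differ when Tmem182 is knocked out. All 8 passed the filter on low counts, and 0 of 8 had an adjusted p under 0.05 by edgeR's quasi-likelihood test, where 0.00783% of all genes tested did. By DESeq2 0 of 8 passed, where 0.047% of all genes did. At an unadjusted p under 0.05 in edgeR the count was also 0 of 8, against 3.55% of all genes. Of the 8, 2 had a higher and 6 a lower fitted value in the knockout, with Klhl24 turning higher when nothing beyond the library total was scaled for. The median log2 fold change was -0.11, against 0.0046 over all genes tested, and -0.034 against 0.075 with no scaling beyond the library total. On TMM-scaled log2 CPM the groups did not overlap for 2 of 8 genes, Klhl33 (lower in the knockout) and Klhl41 (higher), where 9.18% of all genes did not overlap (4.51% lower and 4.67% higher in the knockout). On FPKM as deposited this held for Klhl33 alone, where 7.55% of all genes did not overlap.

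**Figure D3:**
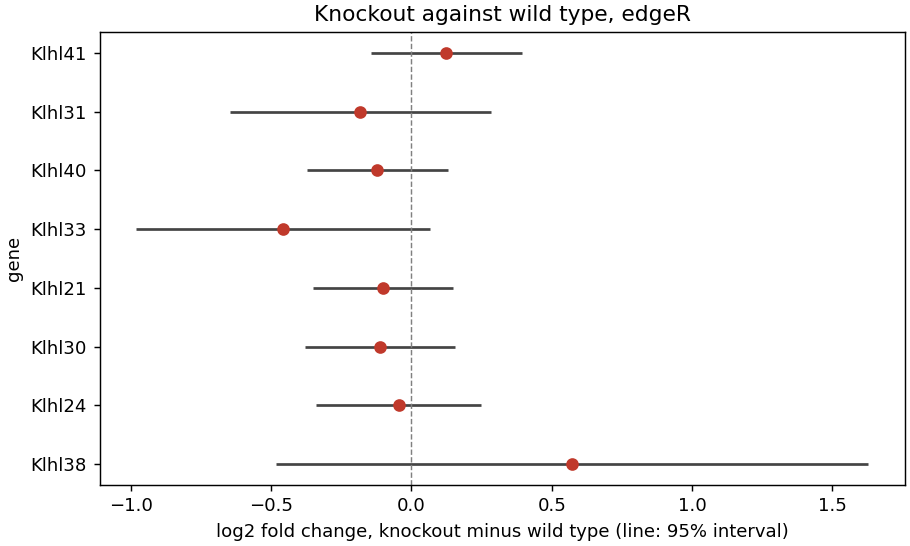
Log2 fold change of each gene, knockout minus wild type, with its 95% interval from edgeR. Every interval spans 0, and the intervals of Klhl33 (-0.98 to 0.07) and Klhl38 (-0.48 to 1.63) are the widest of the 8.

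Klhl41 binds nebulin and the thin-filament assembly protein NRAP, and was the most abundant member in every library. Its FPKM were 282.24, 205.36 and 201.43 (knockout libraries 1, 2 and 3) against 203.27, 194.67 and 199.37 (wild-type libraries 1, 2 and 3). Knockout library 1 was the high one, and the other 2 lay within or just above the wild-type range on this scale. Its fold change was 0.12 on the log2 scale (SE 0.12, 95% interval -0.14 to 0.39, edgeR adjusted p = 0.994). This interval corresponds to a ratio of knockout to wild type between 0.905 and 1.31. On scaled log2 CPM all 3 knockout libraries lay above all 3 wild-type libraries, though knockout library 3 (9.088) and wild-type library 3 (9.088) were nearly equal; the two-sided exact permutation test returned p = 0.1, the lowest value open to 3 against 3. Without knockout library 1 the log2 fold change was 0.07, and with no scaling beyond the library total it was 0.21 with groups that overlapped (7.61% of all genes did not overlap on that scale). Klhl41 (Entrez 228003) maps to chromosome 2 (69670120 to 69684230, plus strand, GRCm38), with 6 exons, and no annotated gene overlaps it.

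Klhl40 stabilises nebulin and leiomodin 3. Its FPKM were 57.07, 41.87 and 44.93 among knockouts against 48.03, 53.16 and 47.06 among wild types. Knockout libraries took the highest place and the lowest places, so the groups overlapped. Its fold change was -0.12 on the log2 scale (SE 0.11, 95% interval -0.37 to 0.13, edgeR adjusted p = 0.994), a ratio between 0.772 and 1.09. With no scaling beyond the library total it was -0.043. The gene (Entrez 72330) maps to chromosome 9 (121777607 to 121783818, plus strand), with 6 exons, and the unconfirmed gene model Gm47108 overlaps it on the opposite strand.

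The ratio of Klhl41 to Klhl40 compares both nebulin-binding members within a library, where library scaling cancels. The FPKM ratio was 4.95, 4.90 and 4.48 among knockouts against 4.23, 3.66 and 4.24 among wild types. Every knockout ratio was above every wild-type ratio. Group means were 4.78 ± 0.26 and 4.04 ± 0.33 (SD, n = 3 each), a log2 difference of 0.24, and the two-sided exact permutation test gave p = 0.1, the smallest possible here. The difference ran from 0.17 without wild-type library 2 to 0.29 without knockout library 3. Neither gene passed the genotype test on its own, and at this p a difference of the ratio between genotypes is not shown.

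Klhl31 is a striated muscle Kelch protein that has filamin C as a partner. Its FPKM were 66.02, 83.66 and 89.29 among knockouts against 94.48, 83.98 and 85.51 among wild types. Knockout library 1 was the lowest of the 6, and the other 2 knockout libraries fell within or just below the wild-type range. Its fold change was -0.18 on the log2 scale (SE 0.20, 95% interval -0.65 to 0.28, edgeR adjusted p = 0.994), and without knockout library 1 it was 0.017. Klhl31 (Entrez 244923) maps to chromosome 9 (77636500 to 77660127, plus strand) with 3 exons, and no annotated gene overlaps it.

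Klhl33, a little-studied member, had the smallest p of the 8 genes. Its FPKM were 21.63, 30.40 and 32.96 among knockouts against 40.36, 36.80 and 36.91 among wild types. Every knockout value was lower than every wild-type value, with knockout library 1 well below the other 2. Its fold change was -0.46 on the log2 scale (SE 0.23, 95% interval -0.98 to 0.07, unadjusted p = 0.0789 and adjusted p = 0.994 by edgeR), and the gene ranked 773 of 12774 by p. The two-sided exact permutation test gave p = 0.1, the smallest possible. Without knockout library 1 the log2 fold change was -0.22. The groups then did not overlap either, where 22.5% of all genes did not overlap. This is no further check, because groups that do not overlap can hardly come to overlap when a library is left out. In FPKM, knockout library 1 also had the highest sums of macrophage, adipocyte, Schwann cell, endothelial, fibro-adipogenic and slow fibre markers, given above. It had the lowest sum of fast fibre markers. Relative to the other libraries its values are lower in CPM than in FPKM. Its lead in fibro-adipogenic markers was narrow (308.73 against 303.17 FPKM in wild-type library 1). By edgeR 0 of 10 fast fibre markers passed, with 10 fitted values lower in the knockout (9 with no scaling beyond the library total) and a median log2 fold change of -0.21. Their sum was 71656 FPKM in knockout library 1, but 106478 and 111656 FPKM in knockout libraries 2 and 3. Among wild types it was 97411 to 110649 FPKM. The part of any of these marker groups in the values of Klhl31 and Klhl33 was not tested. Klhl33 (Entrez 546611) maps to chromosome 14 (50888582 to 50897507, minus strand), and its longest coding transcript has 4 exons.

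Klhl31 and Klhl33 were both low in knockout library 1. In knockout library 1 they lay 0.58 and 0.84 below their means over the 6 libraries on the log2 CPM scale, while the other 6 genes were between 0.17 below and 0.87 above theirs. In the remaining libraries the centred values ran from 0.069 to 0.19 for Klhl31 and from -0.035 to 0.28 for Klhl33. The root-mean-square difference of their centred values was 0.16, although their own SDs over the 6 libraries were 0.29 and 0.43. Closer pairs of members were Klhl21 and Klhl24 (0.082), Klhl21 and Klhl40 (0.12), Klhl40 and Klhl41 (0.15) and Klhl30 and Klhl41 (0.15). The tested genes with the values most like those of Klhl31, by the same measure over 6 libraries and among 6128 genes with a mean of at least 5 FPKM, were Sypl2 (0.053), Cpe (0.058) and Ak1 (0.059), which encode a triad membrane protein, carboxypeptidase E and cytosolic adenylate kinase. Those nearest to Klhl33 were Sfxn3 (0.072), Kcnc4 (0.075) and Plcd4 (0.080).

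**Figure D4:**
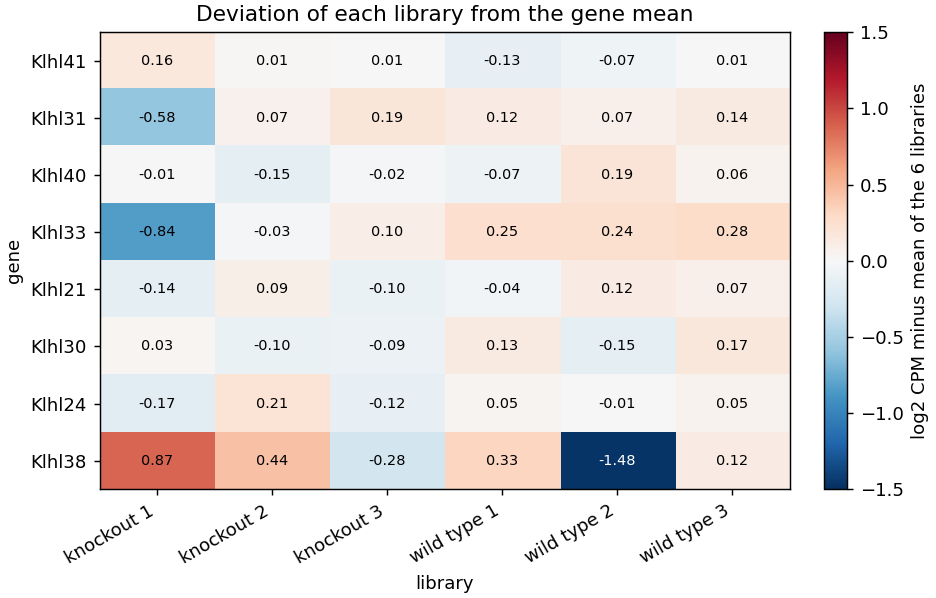
Deviation of each library (columns) from the gene's mean over the 6 libraries on the log2 CPM scale, for the 8 genes (rows). Klhl33 (-0.84) and Klhl31 (-0.58) are low in knockout library 1, and Klhl38 runs from -1.48 in wild-type library 2 to 0.87 in knockout library 1.

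Klhl38, a muscle-enriched member, varied more within groups than any other of the 8. Its FPKM were 18.18, 10.85 and 6.49 among knockouts against 10.95, 2.85 and 8.52 among wild types, from 652, 432, 257, 427, 118 and 341 expected counts. The groups overlapped, and values spanned 2.80-fold within the knockout and 3.84-fold within wild type. The within-group SD was 0.81 on the log2 CPM scale, above that of 97.0% of genes tested, whereas that of Klhl41 was 0.078, above that of 7.41%. Its fold change was 0.57 on the log2 scale (SE 0.45, 95% interval -0.48 to 1.63, edgeR adjusted p = 0.994), so a ratio from 0.716 to 3.09 lies within the interval. It was 0.27 without knockout library 1, 0.19 without wild-type library 2 and 0.89 without wild-type library 1. Klhl38 (Entrez 268807) maps to chromosome 15 (58314573 to 58324169, minus strand) with 4 exons, and the antisense gene Gm15943 overlaps it. The sources used here do not give whether counting used strand, so reads from the pair may not be separated.

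Klhl38 was low in the libraries that were low in slow fibre transcripts. The slow fibre level, the mean log2 CPM of 10 markers such as Myh7 and Tnni1, was 3.43 in knockout library 3 and 3.57 in wild-type library 2, the libraries with the lowest Klhl38, and 6.43 to 8.02 in the other 4. Sums of endothelial markers (52.11 and 52.59 FPKM, others 73.61 to 128.84 FPKM) and tendon markers (53.40 and 60.71 FPKM, others 75.41 to 168.46 FPKM) were also lowest there. Sums of macrophage, adipocyte, Schwann cell and fibro-adipogenic markers were not lowest in both. Klhl34, outside the 8, was lowest there too (1.17 and 0.39 FPKM, others 2.79 to 7.14 FPKM). The part of each in the values of Klhl38 was not tested. Knockout library 1 had the highest slow fibre level and the highest Klhl38. In an edgeR fit with genotype and slow fibre level as terms, chosen to describe this after correlations of the members with that level had been seen, Klhl38 had a slope of 0.31 log2 units per log2 unit of the slow fibre level (SE 0.071, 95% interval 0.15 to 0.48, adjusted p = 0.226). Thus 0 of the 8 genes passed, where 0.133% of all genes passed upward, 8 of those 17 genes being the slow markers themselves, and 0.00783% passed downward. With 1 library left out, Klhl38 passed in 1 of 6 fits, that without knockout library 2 (slope 0.35, edgeR adjusted p = 0.0153). In the other 5 the edgeR adjusted p ran from 0.0688 without knockout library 3, where the slope was 0.60, to 0.565 without wild-type library 2, where it was 0.22. The other 7 genes had slopes from -0.081 for Klhl33 to 0.040 for Klhl30, with 95% intervals that spanned 0. Because the libraries form 2 separate sets on the slow fibre level, no correlation across them is given. The slope and its 95% interval rest largely on the same 2 sets and carry the same limit.

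**Figure D5:**
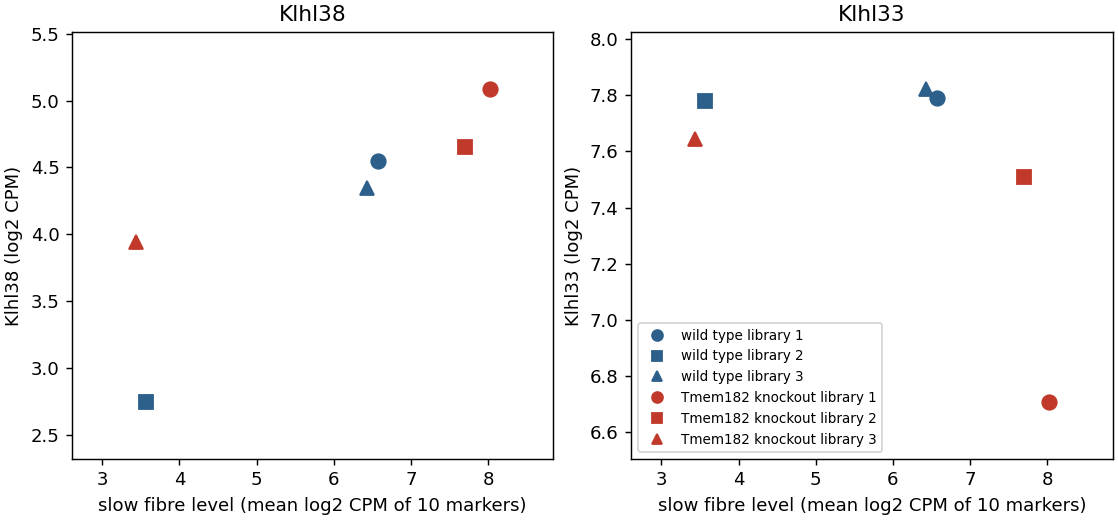
Log2 CPM of Klhl38 (left) and Klhl33 (right) against the slow fibre level (mean log2 CPM of 10 markers), with 1 point per library, knockout in red and wild type in blue. Klhl38 is lowest in the 2 libraries with slow fibre levels of 3.43 and 3.57, while Klhl33 is lowest in knockout library 1 at 8.02.

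In that same fit the log2 fold change of Klhl38 between genotypes was 0.36 and that of Klhl33 was -0.41, neither past the threshold in edgeR. Genes whose values were most like those of Klhl38 were Pcp4l1 (root-mean-square difference 0.19 on the log2 scale), Acadl (0.20), which encodes long-chain acyl-CoA dehydrogenase, and Prkg1 (0.20), which encodes a cGMP-dependent protein kinase.

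Klhl30 did not pass the genotype test. Its FPKM were 38.42, 28.27 and 28.02 among knockouts against 36.25, 27.46 and 33.25 among wild types, so the groups overlapped over nearly their whole range. Its fold change was -0.11 on the log2 scale (SE 0.12, 95% interval -0.38 to 0.16, edgeR adjusted p = 0.994). It was -0.20 without wild-type library 2 and also by limma-voom with quality weights, -0.054 without wild-type library 3 and -0.034 with no scaling beyond the library total. Klhl30 (Entrez 70788) maps to chromosome 1 (91351016 to 91362416, plus strand), the chromosome that also carries Tmem182, whose annotated end is at 40856887.

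The remaining 2 members are expressed in many tissues. Klhl21, an adaptor that acts with cullin 3 on Aurora B in dividing cells, measured 37.01, 34.96 and 30.36 FPKM among knockouts against 34.97, 35.84 and 33.84 FPKM among wild types. Its log2 fold change was -0.10 (SE 0.11, 95% interval -0.35 to 0.15, edgeR adjusted p = 0.994), a ratio between 0.785 and 1.11. Klhl24, which acts on keratin 14 in skin, measured 21.56, 22.43 and 17.70 FPKM among knockouts against 21.96, 19.43 and 19.59 FPKM among wild types. Its log2 fold change was -0.046 (SE 0.13, 95% interval -0.34 to 0.25, edgeR adjusted p = 0.994), and the sign was positive with no scaling beyond the library total (0.015). For both genes the groups overlapped. Centred log2 CPM of Klhl21 and Klhl24 differed by 0.082 (root mean square), the smallest difference among the 28 pairs of members. Klhl21 (Entrez 242785) maps to chromosome 4 (152008803 to 152017680, plus strand), where the unconfirmed gene model Gm9768 overlaps it on the opposite strand, and Klhl24 (Entrez 75785) on chromosome 16 (20097542 to 20129221, plus strand).

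For Klhl21, Klhl24, Klhl30, Klhl40 and Klhl41, whose SDs over the 6 libraries were between 0.097 and 0.14 log2 units, the closest tested genes lay within 0.054 of them. They were Nfatc3 for Klhl21 (0.021), Mak16 for Klhl24 (0.046), Ints10 for Klhl30 (0.034), Bysl for Klhl40 (0.017) and Zfp131 for Klhl41 (0.022). Such small distances are easily reached by genes that vary little.

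The ligase into which Kelch adaptors fit was measured through 24 genes for cullin 3, its RING partner, the NEDD8 pathway that activates it and the COP9 signalosome that turns it off. By edgeR 0 of 24 passed in either direction, with 11 fitted values higher and 13 lower (19 and 5 with no scaling beyond the library total) and a median log2 fold change of -0.0035, against 0.0046 over all genes. Cul3 itself measured 71.89, 84.18 and 83.38 FPKM among knockouts against 69.37, 70.46 and 70.15 FPKM among wild types (log2 fold change 0.15, SE 0.17). These values were higher in each knockout library in FPKM, but the groups overlapped on scaled log2 CPM. Cops2, a signalosome subunit, measured 15.32, 14.16 and 14.02 FPKM among knockouts against 11.74, 9.00 and 10.98 FPKM among wild types (log2 fold change 0.39, SE 0.12, edgeR adjusted p = 0.994). Nae1, a subunit of the NEDD8-activating enzyme, differed by 0.23 (SE 0.094) on the log2 scale, its partner subunit Uba3 by 0.16 (SE 0.14) and the signalosome subunit Cops4 by 0.14 (SE 0.12).

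Among 10 partners and substrates of the 8 proteins, 7 were tested and 0 passed in edgeR, with 6 fitted values higher and 1 lower. Neb, which encodes the thin-filament ruler nebulin, measured 363.01, 420.80 and 473.97 FPKM among knockouts against 376.57, 296.16 and 396.87 FPKM among wild types (log2 fold change 0.19, SE 0.25). Lmod3, the leiomodin that elongates thin filaments, measured 101.68, 53.79 and 53.37 FPKM among knockouts against 69.70, 42.76 and 61.59 FPKM among wild types (log2 fold change 0.16, SE 0.22). For both genes the groups overlapped. Flnc, filamin C, and Lasp1, an actin-binding LIM protein, differed by 0.17 (SE 0.15) and -0.13 (SE 0.16) on the log2 scale. Aurkb and Grik2 were at or below 0.17 FPKM in every library, and Krt14 was listed at 0 in 5 libraries and at 1.64 FPKM in wild-type library 2.

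Of 11 nemaline myopathy genes outside the 8, 0 passed in edgeR, with 8 fitted values higher and 3 lower and a median log2 fold change of 0.16. Tpm3 and Tnnt1, slow-fibre tropomyosin and troponin, differed on the log2 scale by 1.2 (SE 0.73) and 1.48 (SE 1.2), while the difference of Cfl2, the muscle cofilin, was 0.16 (SE 0.10). Kbtbd13 measured 12.51, 7.05 and 7.10 FPKM among knockouts against 8.37, 6.10 and 7.10 FPKM among wild types (log2 fold change 0.21, SE 0.17).

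Of the 44 other Kelch-BTB genes listed, 38 were tested and 0 passed in edgeR, with 21 fitted values higher and 17 lower (23 and 15 with no scaling beyond the library total) and a median log2 fold change of 0.03. Ivns1abp measured 42.32, 32.62 and 35.08 FPKM among knockouts against 26.23, 28.77 and 29.08 FPKM among wild types. All of its knockout values were above all of its wild-type values (log2 fold change 0.31, SE 0.11, unadjusted p = 0.0247 and adjusted p = 0.994 by edgeR). Klhl9, an adaptor of mitotic ubiquitination, differed by 0.28 (SE 0.11) on the log2 scale, Klhl5 by 0.31 (SE 0.15) and Klhl17 by -0.26 (SE 0.14). Groups did not overlap for 6 of the 38, where 9.18% of all genes tested did not overlap.

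Of 12 genes of muscle atrophy and the FOXO pathway, in which ubiquitin ligases other than the Kelch adaptors are prominent, 0 passed in edgeR, with 7 fitted values higher and 5 lower (8 and 4 with no scaling beyond the library total) and a median log2 fold change of 0.094. Fbxo32, the ligase atrogin-1, differed by 0.89 (SE 0.30) on the log2 scale, Gadd45a, a growth-arrest gene, by -0.47 (SE 0.14), Bnip3, a mitophagy receptor, by 0.25 (SE 0.10) and Foxo3 by -0.13 (SE 0.083). None of these 4 passed over all genes (edgeR adjusted p = 0.994 for each). At an unadjusted p under 0.05 in edgeR the count was 3 of 12, against 3.55% of all genes tested. Groups did not overlap for 2 genes that were higher and 2 that were lower in the knockout. Over all genes tested these shares were 4.67% and 4.51%. The list was chosen with earlier results of these data known.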

How the data were processed

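The 6 tables, 1 per library, list the same 19458 genes by Entrez number and symbol. The expected counts are the authors' deposited read counts, estimated per gene and not normalized, with 26.2% to 27.5% of values per library not whole. The FPKM values are the authors' deposited expression values. Per the submitters' processing notes, the tools were RSEM 1.2.12, Bowtie2 2.2.5 and HISAT2 2.0.4 and the build GRCm38, and the sources used here do not give each role, the annotation or the use of strand.

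Expected counts were rounded (by at most 0.5), filtered with filterByExpr (minimum count 10) to 12774 genes, scaled by TMM and tested two-sided, without covariates, by the quasi-likelihood method of edgeR 4.0.16 in R 4.3.3. P-values were adjusted by Benjamini-Hochberg over all genes, with a threshold of 0.05. The common biological coefficient of variation was 18.8%. Each SE is the size of the fold change (log2) over the root of F. Log2 CPM used a prior count of 2. Alternatives used limma 3.58.1 and DESeq2 1.42.0. The main edgeR test, the DESeq2 Wald test and limma on log2 CPM were tested on simulated counts with known changes. The other alternatives, limma on FPKM and limma-voom among them, the slope fit and the ratio were not. No pair of libraries had a chi-square under 12.9 per degree of freedom, so none was a duplicate. Positions are from GENCODE M21 on GRCm38. The named genes were the 8 members, Tmem182, up to 4 members of each list with the smallest p and, for each member, the genes of closest centred values; a few others were named after their values were seen. Members and lists were chosen with earlier results of these data known.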

Additional observations from a re-analysis of the deposited data

How the results depend on the processing

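None of the 8 Kelch genes passed under any of the 15 alternatives (a replicate block, each library left out, no filter, DESeq2 size factors, no scaling beyond the library total, the DESeq2 Wald test, limma on FPKM with a pseudocount of 1 or 0.1, limma-voom with sample quality weights and the slow fibre level as a covariate), with adjusted p from 0.625 to 1.0. The fold changes of Klhl21, Klhl30, Klhl33, Klhl38, Klhl40 and Klhl41 kept their sign throughout. With a library left out, that of Klhl21 ran from -0.17 (without knockout library 2) to -0.057 (without knockout library 1) and that of Klhl40 from -0.19 (without wild-type library 1) to -0.053 (without wild-type library 2). With a library left out, that of Klhl31 ran from -0.33 to 0.017 (without knockout library 1). That of Klhl24 then ran from -0.18 to 0.024 (without knockout library 1; 0.00038 without knockout library 3), and turned to 0.015 with no scaling beyond the library total, 0.011 with limma on FPKM and a pseudocount of 1 or of 0.1, and 0.036 with limma-voom and quality weights. Of the other listed genes 0 passed with the block, with a library left out or by DESeq2. Over all genes, 6 passed by DESeq2 in place of 1 by edgeR, and 0 to 1 passed when a library was left out. The median of all genes moved from 0.0046 to 0.075 with no scaling beyond the library total. Groups did not overlap for 1 member on FPKM or with no scaling beyond the library total, and for 2 to 4 members when a library was left out, where 16.1% to 22.5% of all genes did not overlap. The ratio of Klhl41 to Klhl40 differed by 0.24 (log2) on counts as on FPKM. The slope of Klhl38 on the slow fibre level ran from 0.22 without wild-type library 2 to 0.60 without knockout library 3. Samples with the same number were not treated as pairs in the main fit, and the labels do not say whether they were. The correlations of their deviations were 0.52, 0.18 and -0.12 for numbers 1, 2 and 3. Those of unlike numbers ran from -0.47 to 0.43. With 3 libraries a group such correlations cannot show whether samples were paired. With the replicate block 1 gene passed and 0 of the 8, and the log2 fold change of Klhl33 was -0.51. The planned correlations of the members with the slow fibre level were computed but are not given, because the libraries formed 2 separate sets on it. The slope fit was chosen after these correlations had been seen and carries the same limit. With 3 libraries a group, an interval as wide as that of Klhl38 does not show that its level was alike in both genotypes.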
